A study of Mus musculus with 72 samples.

Results

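Immediate early genes are the first genes a neuron transcribes when it is stimulated, before any new protein is made. The members followed here are Fos, Fosb, Junb, Egr1, Egr3, Arc, Npas4, Nr4a1, Homer1 and Dusp1, chosen by name as a list of commonly used immediate early genes. Each symbol matched 1 row of the count table through the gene names in the deposited comparison tables, so 10 of 55401 genes are described, in all 72 libraries.

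The libraries came from brains of single mouse pups of the strain C57Bl/6, C57Bl/6NTac in the methods. The tissue was the right hemisphere according to the study's methods and the cortex according to the submitters' design text. Morphine, an opioid receptor agonist, or saline reached the pups in 3 windows. In the PND1 window the dams carried an osmotic minipump that released 10 mg/kg morphine a day or saline, and the newborn pups, which had no injection of their own, were collected on day 1. In the PND14 window, untreated dams raised pups that received 10 mg/kg morphine or saline by injection 2 times a day over the first 14 days of life. In the 3-Tri window the pups had the minipump exposure before birth and then the injections, and the methods describe a move of litters born to dams with pumps to a surrogate dam within hours of birth. Brains were taken 6 h after the last dose or, for the newborns, after the litter was found, and the early peak that these transcripts usually show after a stimulus was not sampled. PND1 held 4 morphine and 7 saline libraries labelled female (code F below) and 6 morphine and 7 saline libraries labelled male (code M), while every group of PND14 and 3-Tri held 6. The sample descriptions of PND14 and 3-Tri carry an ID number, and each ID number occurred under 1 drug only, so drug and ID number cannot be told apart. The labels do not say what the number stands for, nor which pups shared a dam, and the p-values below measure the spread between pups, some of which may be littermates.

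Library depth ranged from 20742862 to 27333125 counted reads in PND1, from 4407544 to 21404819 in PND14 and from 3113919 to 19938980 in 3-Tri. Xist, which is transcribed from the inactive X chromosome, and Ddx3y, a Y chromosome gene, went against the label in 4 of 24 PND1 libraries, 0 of 24 PND14 libraries and 12 of 24 3-Tri libraries. Comparisons by code are therefore comparisons of labels. The drug comparisons, the covariance of member pairs and the spread in PND1 and 3-Tri are also given without these mismatched libraries. Leaving them out left 20 libraries in PND1 and 12 in 3-Tri, where 2 libraries remained in each morphine group and 4 in each saline group. All 72 libraries contained forebrain neuron markers, with a summed level of 6 markers from 496.4 to 2382 CPM (counts scaled to an equal library total). Each member passed the filter on low counts in every window. The lowest member count in any library was 9, for Fosb in PND1, and the highest was 4465, for Egr1 in PND14.

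Synaptic activity opens NMDA receptors and voltage-gated calcium channels, and calcium-dependent kinases and the MAP kinase cascade then phosphorylate factors already sitting on the promoters of these genes, CREB on cyclic AMP response elements (CRE) and SRF with its partners on CArG boxes. Fos, Fosb and Junb encode subunits of the AP-1 transcription factor. Egr1 and Egr3 encode zinc finger factors, Npas4 a bHLH-PAS factor specific to neurons, and Nr4a1 an orphan nuclear receptor. Arc encodes a dendritic protein that promotes AMPA receptor endocytosis, Homer1 a postsynaptic scaffold whose short isoform is the activity-induced one, and Dusp1 a phosphatase that switches MAP kinases off again. In the brain the messages of most of these genes fall back within hours of a stimulus, and they are widely used as a record of recent neuronal activity.

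RefSeq promoter windows on GRCm38.p6 (250 bases before to 50 after a start site) were available for 7 members, not for Egr1, Egr3 and Arc. Homer1 had 2 starts, so there were 8 windows in all. The core of the CRE, TGACG or its reverse complement CGTCA, was present in the windows of all 7 of these members, in 7 of 8 windows, and in 20.8% of all 32851 windows of the same length. The core holds a CG, and 7 of the 8 windows were richer in G and C than the median window (44.7% to 72.3% against 52.7%). Nr4a1 had 4 matches, Homer1 start 1 and Dusp1 had 3 each, Fos and Npas4 had 2 each, Fosb and Junb had 1 each, and Homer1 start 2 had 0. The full palindrome TGACGTCA, which contains 2 overlapping cores, was found only in the Dusp1 window and in 1.79% of all windows. The CArG box occurred in 0 of the 8 windows and in 1.63% of all windows, and the EGR site GCGTGGGCG in 0 of 8 and 0.612%. Only exact matches inside these windows were counted. Sites with a mismatch or farther upstream would be missed, so these counts do not show that the genes lack them. TATAAA was present in the Fos and Junb windows and in 13.6% of all windows. In Fos the match began 33 bases before the start. In Junb it began at the start itself, so it does not lie before the start. All motifs were searched on both strands.

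Shown here are the 250 bases before the start of Fos, Junb, Nr4a1, Dusp1 and Homer1. Fos, Junb and Nr4a1 covaried from library to library. With all libraries, Pearson's r of their pairs was 0.774 to 0.932 in 3-Tri, 0.520 to 0.867 in PND1 and 0.613 to 0.753 in PND14. The order of the windows depended on the mismatched libraries. Without them, the median r over all pairs of members was 0.380 in 3-Tri and 0.536 in PND1. Dusp1 holds the full palindrome, and Homer1 was the member least tied to the others in PND14 and 3-Tri. Capitals mark the CRE core and, in Dusp1, the full palindrome with it. The stretches lie at chr12:85473640-85473889 (plus strand, Fos), chr8:84978749-84978998 (minus strand, Junb), chr15:101266596-101266845 (plus strand, Nr4a1), chr17:26508473-26508722 (minus strand, Dusp1) and chr13:93303507-93303756 (plus strand, Homer1 start 1).
Fos: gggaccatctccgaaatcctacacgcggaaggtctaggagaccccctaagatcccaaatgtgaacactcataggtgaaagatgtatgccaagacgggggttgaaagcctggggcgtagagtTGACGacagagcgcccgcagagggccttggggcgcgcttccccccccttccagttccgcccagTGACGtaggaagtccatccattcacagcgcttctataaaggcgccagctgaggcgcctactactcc
Junb: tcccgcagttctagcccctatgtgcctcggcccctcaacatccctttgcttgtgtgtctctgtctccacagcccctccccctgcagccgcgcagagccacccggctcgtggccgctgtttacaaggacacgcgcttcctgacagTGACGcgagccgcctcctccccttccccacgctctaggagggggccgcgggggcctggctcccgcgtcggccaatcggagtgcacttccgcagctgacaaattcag
Nr4a1: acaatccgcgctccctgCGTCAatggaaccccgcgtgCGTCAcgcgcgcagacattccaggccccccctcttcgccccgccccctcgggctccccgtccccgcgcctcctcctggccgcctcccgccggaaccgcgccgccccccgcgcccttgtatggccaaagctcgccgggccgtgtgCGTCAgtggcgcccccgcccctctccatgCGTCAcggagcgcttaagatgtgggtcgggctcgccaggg
Dusp1: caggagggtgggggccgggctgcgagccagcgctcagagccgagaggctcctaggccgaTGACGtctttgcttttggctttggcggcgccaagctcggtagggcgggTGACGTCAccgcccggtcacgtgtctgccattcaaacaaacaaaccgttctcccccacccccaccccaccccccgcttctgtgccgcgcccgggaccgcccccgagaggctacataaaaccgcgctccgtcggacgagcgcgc
Homer1 start 1: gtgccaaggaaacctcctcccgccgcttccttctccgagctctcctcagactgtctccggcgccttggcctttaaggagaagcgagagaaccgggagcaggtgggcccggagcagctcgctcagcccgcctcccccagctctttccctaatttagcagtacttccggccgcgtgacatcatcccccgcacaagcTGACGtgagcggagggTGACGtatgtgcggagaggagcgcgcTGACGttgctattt

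On mm10, in the GENCODE M21 annotation, the members are protein-coding genes, and only Arc (chr15:74669083-74672570, minus strand) and Nr4a1 (chr15:101254269-101274795, plus strand) share a chromosome. The span of Junb (chr8:84974484-84978718, minus strand) overlaps Prdx2 on the opposite strand, and the span of Dusp1 (chr17:26505590-26562128, minus strand) overlaps Ergic1 on the opposite strand. Whether the counting used strand is not given in the sources used here. Reads of Junb and Dusp1 can therefore not be fully told apart from those of these neighbours. Homer1 (chr13:93299635-93405129, plus strand) was counted as 1 gene, and its short activity-induced and long constitutive isoforms cannot be separated in these counts. In bulk tissue, fewer cells of a type and less RNA per cell cannot be told apart either.

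Between PND1 and PND14 all 10 members rose in saline pups, by amounts that differed widely from gene to gene. Arc rose most, followed by Egr1, and Dusp1 and Npas4 rose least. All 10 also rose in 3-Tri against PND1, from 0.70 for Dusp1 to 4.32 for Arc, whereas no member passed between saline pups of 3-Tri and PND14. Genome-wide, 84.9% of 22010 genes passed in the PND14 comparison, 41.7% of all genes higher, and 85.1% in the 3-Tri comparison, 42.1% higher, so a pass is not particular to these genes.

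Arc ranged from 2.31 to 7.29 CPM (median 3.54) in the 14 saline libraries of PND1 and from 54.9 to 144.0 CPM (median 70.7) in the 12 of PND14. The lowest PND14 library was thus far above the highest PND1 library. Its log2 fold change was 4.35 (SE 0.14, edgeR quasi-likelihood test, adjusted p = 1.59e-40). Egr1 ranged from 7.41 to 17.7 CPM in PND1 and from 151.2 to 292.8 CPM in PND14, again without overlap, and rose by 4.19 on the log2 scale (SE 0.12). The other zinc finger member, Egr3, rose by 3.61 (SE 0.08). Among the AP-1 subunits, Junb rose by 3.29 (SE 0.10), Fosb by 3.03 (SE 0.19) and Fos by 3.02 (SE 0.14) on the log2 scale. Nr4a1 rose by 1.54 (SE 0.08), Homer1 by 1.34 (SE 0.04), Npas4 by 0.80 (SE 0.13) and Dusp1 by 0.71 (SE 0.07). Npas4 was the member whose ranges met, with 6.38 to 10.8 CPM in PND1 and 9.05 to 29.2 CPM in PND14, and its adjusted p was 2.02e-07 by edgeR, the largest of the 10. Age, window and day of collection changed together here, and exposure route with them.

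Per kilobase of exon, the scale on which genes can be compared with each other, the order of the members changed between the ages. In newborn saline pups Nr4a1 led with a mean of 6.46 ± 0.71 CPM per kb (SD, n = 14), next to Dusp1 at 6.21 ± 0.48 and Homer1 at 5.66 ± 0.37, and Nr4a1 and Dusp1 did not differ beyond their spread. Egr1 stood at 2.51 ± 0.64, Egr3 at 2.01 ± 0.485, Npas4 at 2.01 ± 0.39 and Junb at 1.88 ± 0.50, with overlapping ranges of mean ± SD. Arc (1.26 ± 0.40) and Fos (1.16 ± 0.28) followed, and Fosb was lowest at 0.126 ± 0.039 CPM per kb. At PND14 Egr1 led with 46.1 ± 9.1 CPM per kb (n = 12), above Arc at 26.4 ± 9.0 and Egr3 at 24.7 ± 3.6, which did not differ beyond their spread. Nr4a1 (19.1 ± 5.3) and Junb (18.7 ± 4.1) came next, then Homer1 (14.4 ± 1.2), Dusp1 (10.2 ± 1.7) and Fos (9.74 ± 3.30). Npas4 (3.51 ± 1.29) and Fosb (1.11 ± 0.52) were lowest. Dusp1 and Homer1, high at birth relative to the other members, thus ended in the lower part of the order.

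The saline pups of 3-Tri and PND14 differed in the saline pump carried by the dam and in rearing by a surrogate dam. Their ages match by the study's methods, but the 3-Tri labels give no day of collection. Between these pups 0 of 10 members passed. Genome-wide 0% of genes passed by edgeR and 3.28% had an unadjusted p under 0.05, against 0 of 10 members. The 95% intervals of the log2 differences were narrow for Homer1 (-0.10 to 0.07), Egr3 (-0.15 to 0.15) and Nr4a1 (-0.24 to 0.09), and widest for Fosb (-0.16 to 0.46) and Npas4 (-0.03 to 0.53).

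**Figure D1:**
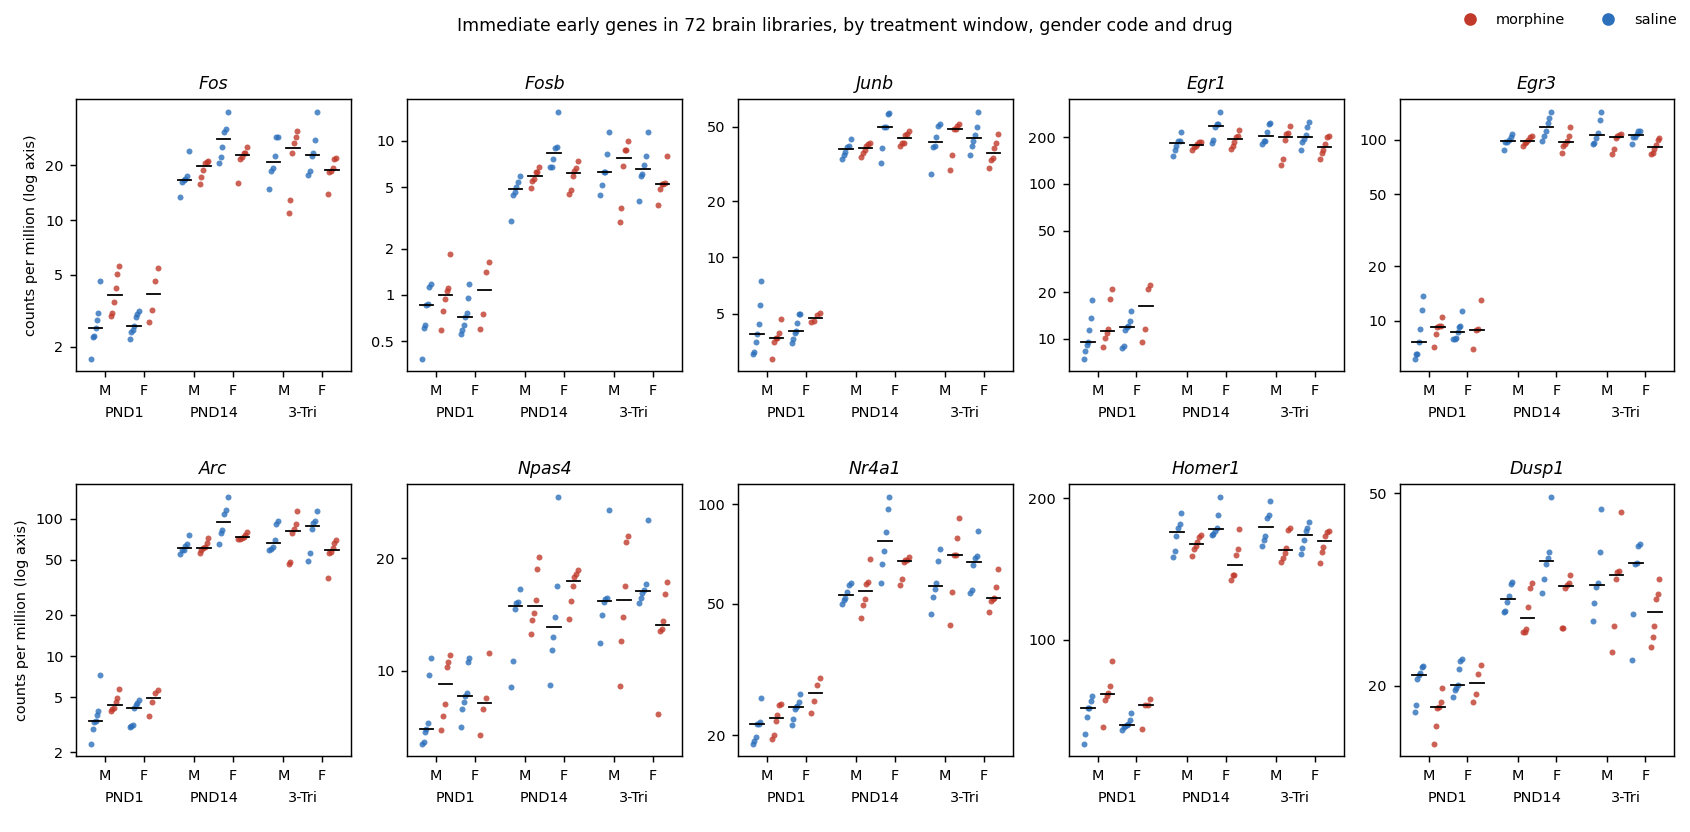
CPM of each member (log axis, not starting at 0) by window and gender code, with 1 point per library, coloured by drug, and a bar at the group median. Every PND14 and 3-Tri library of Arc (36.9 CPM or more) and Egr1 (132.7 CPM or more) lies above every PND1 library, whereas morphine and saline points overlap in all windows.

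In newborn pups the question was whether morphine given through the dam changed these genes by the day of birth. Fos was higher after morphine, in both codes alike. In code M the saline libraries held 1.72 to 4.596 CPM (median 2.56, n = 7) and the morphine libraries 2.97 to 5.602 CPM (median 3.89, n = 6). In code F the saline libraries held 2.21 to 3.16 CPM (median 2.62, n = 7), and the 4 morphine libraries held 2.73, 3.18, 4.61 and 5.41 CPM. The groups overlapped, but all 10 morphine libraries lay above the saline median. Over both codes Fos rose by 0.56 on the log2 scale (SE 0.14, 95% interval 0.27 to 0.85, edgeR adjusted p = 0.00774), a test in which 16.8% of 21714 genes passed, 7.39% higher. The Fos fold change was 0.56 in code M (SE 0.19, edgeR adjusted p = 0.0437) and 0.56 in code F (SE 0.21, adjusted p = 0.293). Without the 4 mismatched libraries, the Fos change over both codes was 0.43 on the log2 scale with an adjusted p of 0.0524 by edgeR, and 0.44 in code M with an adjusted p of 0.116, so neither passed. Leaving out single PND1 libraries, of morphine or saline, kept the call over both codes each time, but 11 of 24 such omissions ended the call in code M (log2 change 0.45 to 0.73, adjusted p up to 0.114). These were M saline replicates 8, 10, 11, 12, 13 and 14, M morphine replicates 5, 8 and 10, and F saline replicates 1 and 7.

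Homer1 was the other member called over both PND1 codes. It ranged from 60.1 to 76.1 CPM in saline pups (median 66.9) and from 64.5 to 90.3 CPM in morphine pups (median 74.7), and 3 of 10 morphine libraries lay above all saline libraries. The log2 fold change was 0.13 (SE 0.04, edgeR adjusted p = 0.0414), and 0.14 without the mismatched libraries (adjusted p = 0.0346). Homer1 has the longest exons and the lowest GC content of the members, and after a correction of each library for GC content and length its log2 change was 0.02 (edgeR adjusted p = 0.728), while that of Fos was 0.61 (adjusted p = 0.00571). Its call was also lost without any of 14 single PND1 libraries, F morphine replicates 2, 3 and 4, F saline replicates 2, 3, 5, 6 and 7, M morphine replicates 8, 9 and 10, and M saline replicates 11, 13 and 14, with an adjusted p of at most 0.0977.

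Dusp1, the phosphatase, went the other way in code M. Its levels there were 17.6 to 22.01 CPM after saline (median 21.1) and 15.2 to 19.8 CPM after morphine (median 18.0). All 6 morphine libraries lay below the saline median, and the log2 fold change was -0.21 (SE 0.06, edgeR adjusted p = 0.0301). Fos and Dusp1 were the 2 members called in code M, where 14.4% of genes passed, 6.31% higher and 8.08% lower. At an unadjusted p under 0.05, 3 of 10 members passed there, with Homer1 (0.15, SE 0.06) added, against 29.9% of genes. In code F Dusp1 had a log2 change of -0.03 (SE 0.07), and the difference between the codes was -0.18 (SE 0.10), which did not pass (adjusted p = 0.871 by edgeR). With only the 2 groups of code M in the fit the adjusted p was 0.0515 for Dusp1 and 0.0814 for Fos, so neither was called. After the GC and length correction Dusp1 had an adjusted p of 0.0928. Without the mismatched libraries Dusp1 (-0.24, edgeR adjusted p = 0.0205) and Homer1 (0.19, adjusted p = 0.0232) were the members called in code M, where 17.6% of genes passed, 6.18% higher and 11.5% lower. Over both codes they were Homer1 and Dusp1 (-0.16, edgeR adjusted p = 0.0351), against 16.1% of genes, 5.55% higher and 10.6% lower. In code M of this set, the slope of expression on GC content (log2 per 10% GC) did not overlap between the drugs. It was -0.210 to -0.108 after morphine and -0.053 to 0.080 after saline. These calls are not given with the GC and length correction, so drug and GC slope cannot be told apart in them. With all libraries, the code M call of Dusp1 was lost without M morphine replicate 7 or 9 or M saline replicate 9, 10 or 11 (adjusted p up to 0.0889).

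The remaining members did not pass in PND1, but most estimates were positive. Egr1 had a log2 change of 0.38 (SE 0.16, adjusted p = 0.107 by edgeR), Fosb of 0.44 (SE 0.20, adjusted p = 0.121) and Arc of 0.29 (SE 0.14, adjusted p = 0.155). For Arc, too, all 10 morphine libraries lay above the saline median, although a single saline library of code M, replicate 9, held the highest level of all (7.29 CPM). Without that library Arc was called over both codes, with a log2 change of 0.40 (edgeR adjusted p = 0.0121). Nr4a1 had a log2 change of 0.11 (SE 0.05), Npas4 of 0.09 (SE 0.11), Egr3 of 0.06 (SE 0.12) and Junb of -0.05 (SE 0.12). At an unadjusted p under 0.05, 6 of 10 members passed over both codes, 5 of them higher, where 30.9% of all genes did, 14.9% higher. In code F 0 of 10 members passed and 0% of genes did by edgeR. There, 1 of 10 (Fos) had an unadjusted p under 0.05, against 11.7% of genes, 5.11% higher. Between the codes the morphine response of 0 of 10 members differed at an adjusted or unadjusted p under 0.05, where 0% of genes passed by edgeR and 5.47% had such an unadjusted p.

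PND1 libraries also varied in the tissue they held. The summed level of 13 hindbrain and spinal cord markers had a median of 39.6 CPM (3.80 to 134.1) in morphine pups and 21.8 CPM (0.773 to 74.5) in saline pups, and that of 6 excitatory forebrain neuron markers a median of 645.9 CPM (496.4 to 712.0) and 663.1 CPM (496.6 to 761.3). Choroid plexus markers had a median of 286.0 CPM in morphine pups and 340.0 CPM in saline pups. In code M, where Fos and Dusp1 were called, the hindbrain and spinal cord markers were higher after morphine in 8 of 13 at an unadjusted p under 0.05, 2 of them called by edgeR, with a median log2 change of 1.76. Their summed level was 25.7 to 134.1 CPM in the M morphine libraries and 2.75 to 60.3 CPM in the M saline libraries. The 6 striatal neuron markers were lower in 4 at an unadjusted p under 0.05, 2 of them called by edgeR (median log2 change -0.21), and the excitatory forebrain markers in 3 of 6, 1 of them called (median -0.16). In code F 0 of the 13 hindbrain and spinal cord markers had an unadjusted p under 0.05 (median -0.56). The part of these markers in the changes of Fos, Homer1 and Dusp1 was not tested. The slope of expression on GC content (log2 per 10% GC) differed as well. In code M it was -0.210 to -0.108 in morphine replicates 6 to 10 and 0.024 in the mismatched morphine replicate 5. The M saline libraries had -0.053 to 0.080. In code F it was 0.0039 to 0.018 after morphine and 0.038 to 0.111 after saline.

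After postnatal exposure the estimates were small and mostly below 0. Over both codes of PND14 only Homer1 passed, at a log2 change of -0.16 (SE 0.04, edgeR adjusted p = 0.0476), where 1.69% of 19636 genes passed, 1.06% lower. Homer1 ranged from 134.1 to 171.6 CPM after morphine (median 156.0, n = 12) and from 150.3 to 201.3 CPM after saline (median 171.5, n = 12). The ranges overlapped widely, with 11 of 12 morphine libraries below the saline median. The call was lost without any of the 4 ID numbers, with a log2 change between -0.23 without 4424 (adjusted p = 0.0934) and -0.09 without 4425 (adjusted p = 0.565), both saline numbers, and after the GC and length correction (-0.12, adjusted p = 0.131). It was also lost without any of 18 of the 24 single libraries (adjusted p of 0.0103 to 0.106 over all 24), and kept without F morphine replicate 6 or 12, F saline replicate 12, M morphine replicate 1 or M saline replicate 1 or 2. DESeq2 gave an adjusted p of 0.0124 for the same comparison.

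Most of the low estimates lay in code F. There, 8 of 10 members were lower after morphine at an unadjusted p under 0.05, where 10.5% of genes had such a p and 5.52% were lower. None passed the adjustment, as 0% of all genes did by edgeR, while DESeq2 called 1 member, Homer1 (adjusted p = 0.0201). Fosb ranged from 6.75 to 15.5 CPM in the 6 saline libraries (median 8.31) and from 4.52 to 7.47 CPM in the 6 morphine libraries (median 6.17). Of the morphine libraries, 5 of 6 lay below all saline libraries, and the log2 change was -0.56 (SE 0.17, adjusted p = 0.291 by edgeR). Arc held 64.7 to 144.0 CPM after saline (median 94.9) and 70.5 to 79.2 CPM after morphine (median 72.9). The saline libraries thus spread widely and the morphine libraries hardly at all, and the log2 change of Arc was -0.42 (SE 0.12, adjusted p = 0.284 by edgeR). Homer1 had the smallest p, at a log2 change of -0.26 (SE 0.06, adjusted p = 0.238 by edgeR), and 5 of its 6 morphine libraries lay below all saline ones. Fos (-0.34), Nr4a1 (-0.32), Dusp1 (-0.27), Egr1 (-0.26) and Egr3 (-0.26) made up the rest of the 8. Junb had a log2 change of -0.15 (SE 0.10), and Npas4 was the member with a positive estimate, 0.12 (SE 0.19).

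Tissue markers differed in the same comparison. In code F of PND14, 7 of 8 cerebellar markers were higher after morphine at an unadjusted p under 0.05, with a median log2 change of 1.17, and none passed the adjustment. Their summed level was 189.5 to 320.5 CPM (median 218.5) in the F morphine libraries and 178.7 to 212.3 CPM (median 204.1) in the F saline libraries. Microglia markers were lower in 4 of 7 at an unadjusted p under 0.05 (median -0.14, summed level 335.1 to 395.7 CPM after morphine and 391.5 to 427.2 CPM after saline). Choroid plexus markers were lower in 3 of 7 (median -0.15, 270.5 to 380.3 CPM and 257.6 to 360.6 CPM). None of the 6 excitatory forebrain markers had such a p (median 0.04). In code M none of the 8 cerebellar markers had one (median -0.28). The part of these markers in the members' change was not tested.

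In code M of PND14, 0 of 10 members passed and 0 had an unadjusted p under 0.05, where 0.28% of genes passed by edgeR and 9.29% had such a p. The estimates ran from -0.09 for Dusp1 to 0.33 for Fosb (SE 0.17), whose morphine libraries (4.98 to 6.82 CPM, median 5.95) all lay above the saline median of 4.87 CPM. The difference between the codes was positive for all 10 members. It had an unadjusted p under 0.05 in 6 of 10, against 3.44% of genes, 1.61% higher, and none passed the adjustment (0% of genes did by edgeR). Fosb differed most, by 0.89 on the log2 scale (SE 0.24, adjusted p = 1 by edgeR). Fos differed by 0.50 (SE 0.18), Arc by 0.42 (SE 0.17), Nr4a1 by 0.36 (SE 0.15), Egr3 by 0.28 (SE 0.11) and Homer1 by 0.20 (SE 0.08). The members covary from library to library, so these are not independent differences. Cerebellar markers differed between the codes as well, in 5 of 8 at an unadjusted p under 0.05, each lower, with a median log2 difference of -1.45, and their part in the members' difference was not tested.

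Much of the spread among PND14 saline pups ran along the ID number. Under saline, the 6 libraries of number 4425 were higher than the 6 of number 4424 for all 10 members, and 9 of 10 had an unadjusted p under 0.05, where 3.32% of genes did, 1.65% higher. Again 0 of 10 passed the adjustment, as 0% of genes did by edgeR. Npas4 ranged from 9.05 to 15.2 CPM (median 10.98) in 4424 and from 13.9 to 29.2 CPM (median 15.9) in 4425, a log2 difference of 0.61 (SE 0.15, adjusted p = 1 by edgeR). Arc ranged from 54.9 to 82.6 CPM (median 64.9) in 4424 and from 59.4 to 144.0 CPM (median 91.8) in 4425. The ranges overlapped, and the log2 difference of Arc was 0.45 (SE 0.10, adjusted p = 0.851 by edgeR). Fosb (0.43), Fos (0.42), Nr4a1 (0.35), Junb (0.33), Egr1 (0.29), Egr3 (0.22) and Homer1 (0.14) were the others with an unadjusted p under 0.05, and Dusp1 had 0.10 (SE 0.09). Under morphine, the numbers 4423 and 4422 differed in 1 of 10 members at an unadjusted p under 0.05, Nr4a1 at 0.19 (SE 0.09), against 8.19% of genes, 3.52% higher. With no filter on low counts, 7 of 10 members passed the adjustment between the saline numbers. The share of all genes that passed without the filter is not given here, so this count cannot be called particular to the members. The difference between 4425 and 4424 was of the same order as the difference between morphine and saline, and each number belongs to 1 drug, so a drug effect and a number effect on these genes cannot be told apart.

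**Figure D2:**
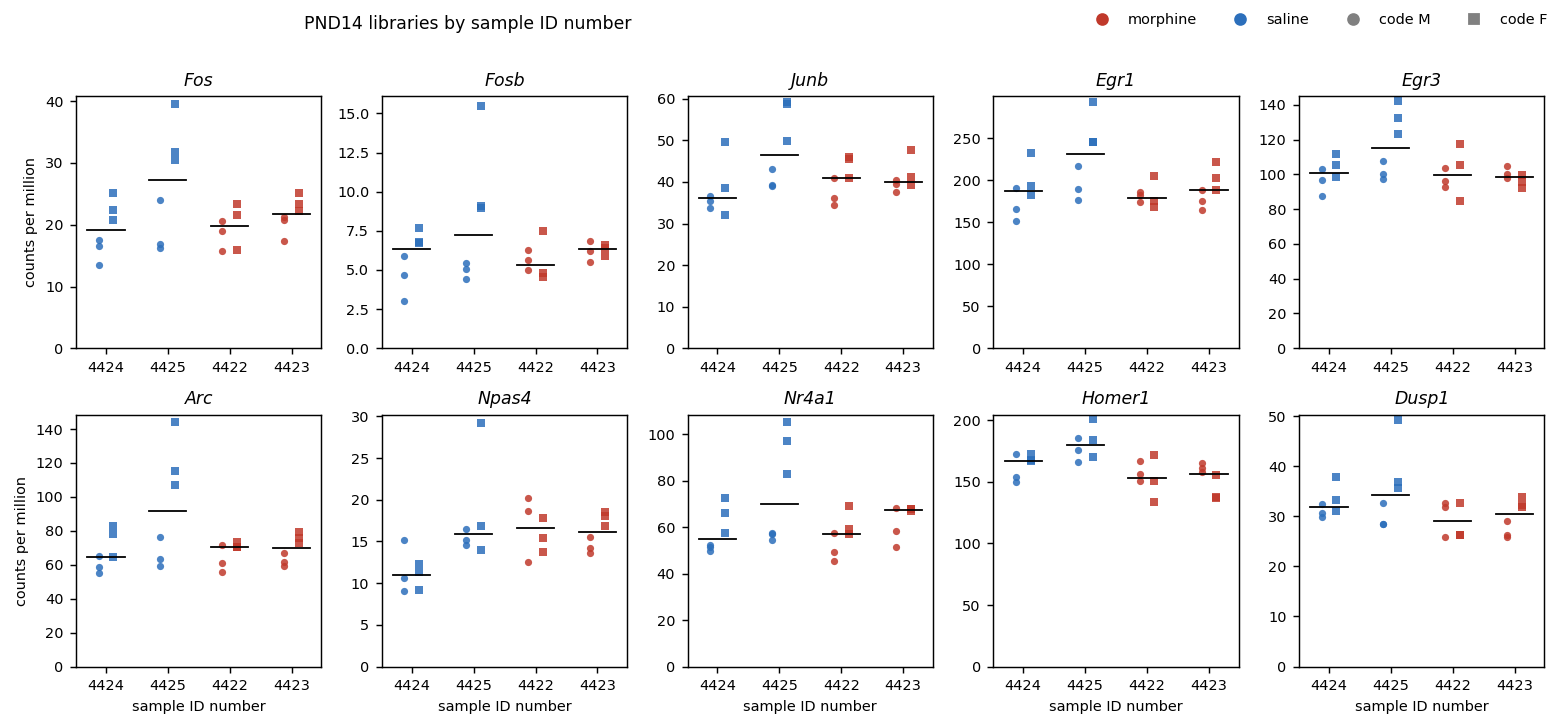
CPM of each member in the PND14 libraries by sample ID number, with 1 point per library (circles code M, squares code F), coloured by drug, and a bar at the median. The median of saline number 4425 lies above that of saline number 4424 for all 10 members (Arc 91.8 against 64.9 CPM), while the morphine numbers 4422 and 4423 have Arc medians of 70.6 and 69.6 CPM.

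In 3-Tri, 0 of 10 members passed in either code or over both, and 0% of genes did by edgeR. All 10 estimates over both codes were below 0, from -0.05 for Nr4a1 to -0.27 for Fosb. At an unadjusted p under 0.05 there were 3 of 10, Egr3 (-0.18, SE 0.06), Homer1 (-0.09, SE 0.04) and Egr1 (-0.19, SE 0.09), where 4.88% of genes had such a p and 2.92% were lower. Egr3 ranged from 83.5 to 107.8 CPM after morphine (median 96.9) and from 94.6 to 143.1 CPM after saline (median 106.0), and the groups overlapped. The 95% intervals ran from -0.53 to 0.09 for Fos and from -0.51 to 0.08 for Arc, so the PND14 code F estimates of these genes lie inside them. In code F of 3-Tri all 10 estimates were below 0 and 4 of 10 had an unadjusted p under 0.05 (Arc -0.50, Nr4a1 -0.30, Junb -0.29 and Egr3 -0.20), where 2.41% of genes had, 1.26% lower. In code M 1 of 10 did (Homer1, -0.14), against 4.98% of genes, 3.14% lower. The difference between the codes had an unadjusted p under 0.05 for Nr4a1 only (0.51, SE 0.19), 1 of 10 against 2.32% of genes, 1.14% higher. With 12 of 24 3-Tri libraries against their label, the codes of this window do not stand for sex. Over both codes Xist was the higher of the sex genes in 6 of 12 morphine and 6 of 12 saline libraries, but in code F it was so in 2 of 6 morphine and 4 of 6 saline libraries, and in code M in 4 of 6 and 2 of 6. Between the saline numbers 4431 and 4429 Dusp1 had an unadjusted p under 0.05 (0.30, SE 0.13), 1 of 10 against 10.4% of genes (0.0659% passed the adjustment by edgeR), and between the morphine numbers 0 of 10 against 5.88%.

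The 12 3-Tri libraries that match their label gave larger estimates. Over both codes 9 of 10 members were lower after morphine at an unadjusted p under 0.05, where 3.45% of 20252 genes had such a p and 1.57% were lower. None passed the adjustment, as 0% of genes did by edgeR. Arc had a log2 change of -0.51 (SE 0.08, edgeR adjusted p = 0.261), Fosb of -0.71 (SE 0.17) and Fos of -0.59 (SE 0.14), each with a larger size than with all 24 libraries. Homer1, the member outside the 9, had -0.08 (SE 0.05). In code F 4 of 10 members had an unadjusted p under 0.05 (Arc -0.62, Fosb -0.62, Fos -0.45 and Nr4a1 -0.31), against 3.22% of genes, 1.48% lower. In code M 7 of 10 did, from -0.19 for Homer1 to -0.80 for Fosb, against 1.76% of genes, 0.82% lower. The difference between the codes had such a p in 0 of 10 members, against 1.58% of genes. With 2 morphine libraries in each code, these estimates rest on 4 morphine pups. Those of code M were replicates 1 and 8, the lowest 3-Tri libraries in mean deviation of the members from their full group (-0.43 and -0.52 in log2). The 4 M morphine libraries left out stood at 0.11 to 0.40.

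Whether the response differed between the windows was tested in 1 fit of all 72 libraries. Fos, Egr1 and Homer1 passed. The morphine response of Fos was lower in PND14 than in PND1 by 0.65 on the log2 scale (-0.65, SE 0.22, edgeR adjusted p = 0.0339), that of Egr1 by 0.53 (-0.53, SE 0.17, adjusted p = 0.028) and that of Homer1 by 0.29 (-0.29, SE 0.06, adjusted p = 0.000864). Genome-wide 13.3% of genes passed this test by edgeR, 6.07% lower. For 3-Tri against PND1 the same genes passed, Fos at -0.78 (SE 0.22, adjusted p = 0.0151), Egr1 at -0.58 (SE 0.17, adjusted p = 0.0229) and Homer1 at -0.22 (SE 0.06, adjusted p = 0.0154), where 8.43% of genes passed, 3.85% lower. Both tests use the same PND1 libraries and are not separate evidence. None of the 10 differed in response between 3-Tri and PND14, where 0.182% of genes did, and 0 of 10 had an unadjusted p under 0.05 against 9.14%.

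Without the mismatched libraries, Homer1 kept its call for PND14 against PND1 (-0.31, adjusted p = 0.000868 by edgeR) and Fos and Egr1 did not (Fos -0.53, adjusted p = 0.0533, and Egr1 -0.32, adjusted p = 0.22). For 3-Tri against PND1, Fos kept it (-1.02, adjusted p = 0.0275) and Egr1 (-0.54, adjusted p = 0.202) and Homer1 (-0.23, adjusted p = 0.165) did not, with 12 3-Tri libraries left. Without saline number 4431 none of the 3 passed for 3-Tri, with log2 differences of -0.64 for Fos, -0.46 for Egr1 and -0.18 for Homer1. Without saline number 4425, Fos (-0.44, adjusted p = 0.262) and Egr1 (-0.38, adjusted p = 0.219) were not called for PND14 and Homer1 was (-0.22, adjusted p = 0.0298). With the ID number as a random effect in limma, Homer1 alone passed for PND14 (-0.29, adjusted p = 0.00272), and Fos (-0.80, adjusted p = 0.0425) and Homer1 (-0.22, adjusted p = 0.0306) for 3-Tri. Of single libraries, PND1 F morphine replicates 3 and 4, PND1 M morphine replicate 10, PND1 M saline replicate 11, PND14 F saline replicate 10 and PND14 M saline replicate 7 each ended the Fos call for PND14 when left out (adjusted p up to 0.0942). For Egr1 these were PND1 F morphine replicates 3 and 4 in both comparisons, and PND1 M morphine replicates 5 and 10 for PND14 (adjusted p up to 0.0963). After the GC and length correction Homer1 was not called in either comparison (adjusted p = 0.118 for PND14 and 0.302 for 3-Tri), and Fos and Egr1 were.

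**Figure D3:**
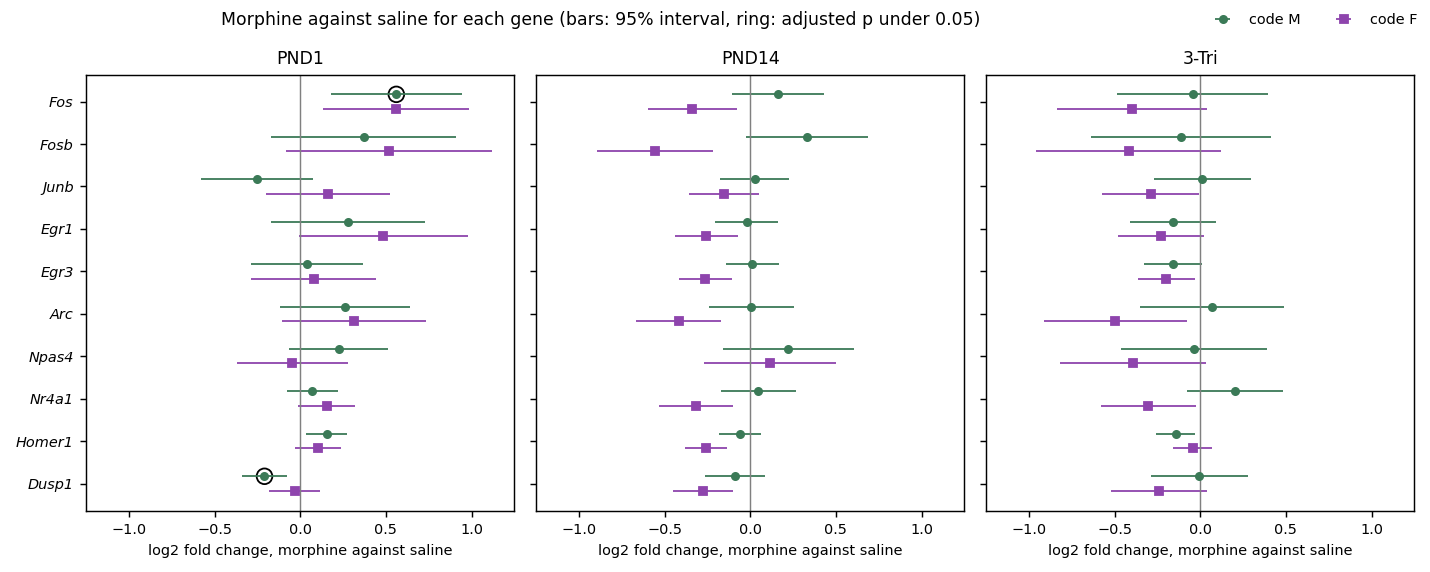
Log2 fold change of each member, morphine against saline, in code M (circles) and code F (squares) of each window, with bars for the 95% interval and a ring where the adjusted p was under 0.05. The rings mark Fos (0.56) and Dusp1 (-0.21) in PND1 code M, and the code F squares of PND14 lie below 0 for all members except Npas4 (0.12).

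Beyond these mean differences, the members varied from pup to pup more than most genes do. Within groups, 9 of 10 members had a larger SD of log2 CPM than the median gene (0.169 over 22010 genes), led by Fosb (0.446), Fos (0.361), Npas4 (0.354) and Arc (0.342). Homer1 was the exception at 0.107. Low counts inflate such an SD, so the dispersion of edgeR was also set against its trend at the same expression level. In 3-Tri the coefficient of biological variation of Arc was 24.4%, 3.90 times the 6.25% of the trend. Fos (3.53 times), Fosb (3.34), Npas4 (3.12), Nr4a1 (2.73), Junb (2.70) and Dusp1 (2.48) also stood well above it, Egr1 (1.84) and Egr3 (1.32) less so, and Homer1 lay below it (0.857). In PND14 the ratio ran from 0.925 for Homer1 to 2.61 for Npas4. In PND1 Egr1 stood out with 2.76 times the trend, while Nr4a1 (0.995) and Homer1 (1.04) lay at it and Dusp1 (0.816) below it. Without the mismatched libraries the ratios in 3-Tri were lower, at 1.17 for Arc, 1.89 for Fos, 1.43 for Fosb, 1.73 for Npas4, 1.35 for Nr4a1, 1.71 for Junb and 1.42 for Dusp1, while in PND1 they ran from 0.861 for Dusp1 to 2.77 for Egr1.

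This variation was shared. Each member's log2 CPM was centred on its group mean, and Pearson's r was computed for the 45 pairs of members in each window over 24 libraries. The median r was 0.441 in PND1, 0.552 in PND14 and 0.648 in 3-Tri. By permutation of the libraries within groups, adjusted over all pairs and windows, 21, 22 and 32 of the 45 pairs passed, each with a positive r. With Spearman's rho 16, 16 and 32 pairs passed.

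The tightest pair was Fos and Junb in 3-Tri, which dimerise in AP-1, at r = 0.932 (rho 0.926, permutation p = 1e-05, the smallest these permutations can give, adjusted p = 0.00027, and r = 0.905 without the 2 libraries farthest from the median). Fos and Fosb (r = 0.895, rho 0.877, 0.847 without the 2), Egr1 and Arc (0.887, rho 0.868, 0.853) and Fos and Arc (0.872, rho 0.882, 0.848) followed in that window. In PND14 Fos and Arc led (r = 0.856, rho 0.866, 0.788 without the 2), and in PND1 Fos and Nr4a1 (r = 0.867, rho 0.860, 0.813). Fos, Arc and Egr1 were thus among the leading pairs at birth and at day 14, although their levels in CPM differed severalfold between these ages. Homer1 was the least tied member in PND14 and 3-Tri, with a median r to the other 9 of 0.277 and 0.366, and had 0.341 in PND1, where Npas4 (0.231), Egr3 (0.294) and Dusp1 (0.329) were lower. Its r with Dusp1 in PND14, -0.299 (rho -0.330, permutation adjusted p = 0.228), was the lowest of all pairs and did not pass. Homer1 and Egr3, however, passed in PND1, PND14 and 3-Tri, at r = 0.513, 0.638 and 0.609 (rho 0.471, 0.587 and 0.637). In 3-Tri Homer1 and Egr1 passed as well (r = 0.555, rho 0.527). Npas4 was tied to the others in 3-Tri (median r 0.590) and PND14 (0.526). Egr3 had a median r of 0.543 in PND14 and 0.465 in 3-Tri, and its r with Fos did not pass in any of them (0.285, 0.375 and 0.317).

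Centring on ID number lowered the covariance in PND14 and not in 3-Tri. After centring on ID number and code in place of drug and code, 4 of 45 PND14 pairs passed (median r 0.281), while 29 of 45 passed in 3-Tri (median r 0.724). Leaving out, for each pair, the 2 libraries farthest from the median of its first gene left 15, 7 and 29 pairs called in PND1, PND14 and 3-Tri. Without the mismatched libraries, 13 pairs passed in PND1 (median r 0.536, 20 libraries left) and 5 in 3-Tri (median r 0.380, 12 libraries left). This alternative was chosen after seeing the data. PND1 libraries carry no ID number.

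**Figure D4:**
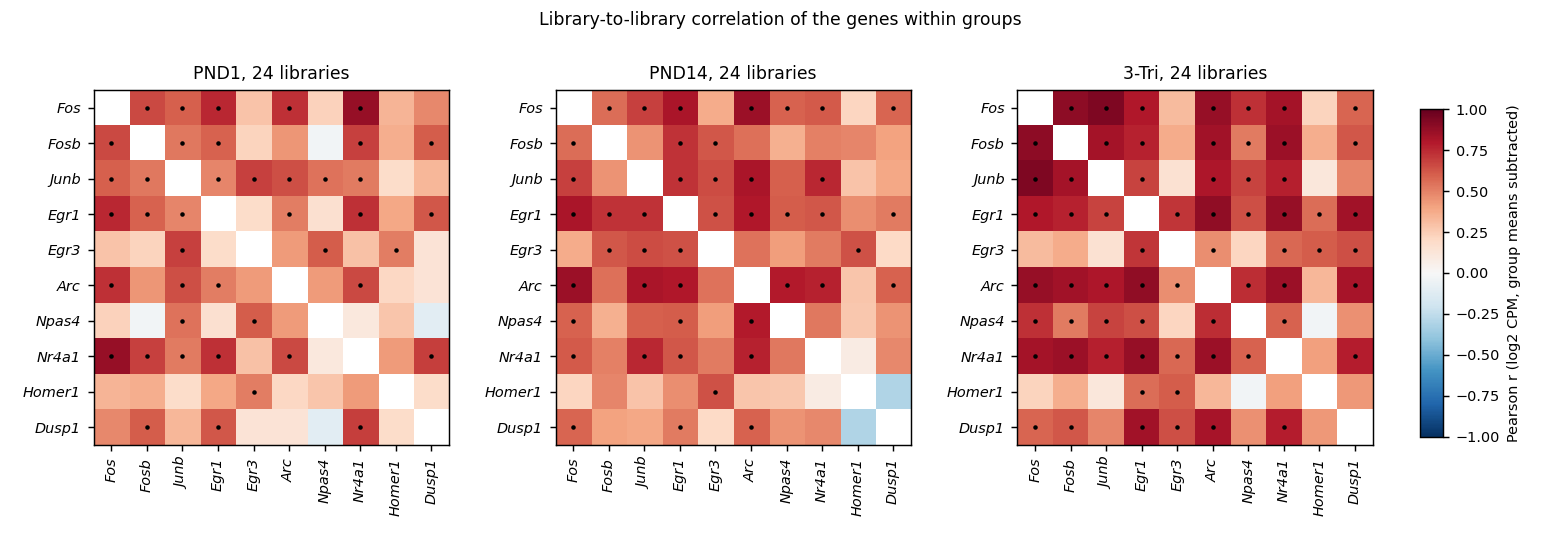
Pearson's r of each pair of members (colour) within PND1, PND14 and 3-Tri, on log2 CPM with group means subtracted, 24 libraries a window, with a dot where the pair passed the permutation test after adjustment. Fos, Fosb, Junb, Egr1, Arc and Nr4a1 have high r with each other in 3-Tri (up to 0.932). The Homer1 row is mostly paler (median r 0.277 to 0.366). Its cells with Egr3 are darker and dotted (r 0.513 in PND1, 0.638 in PND14 and 0.609 in 3-Tri), as is that with Egr1 in 3-Tri (0.555).

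Because the members moved together, single pups stood high or low for the whole list. In 3-Tri, 14 of 24 libraries had 9 or 10 members on the same side of their group mean, against 8 in PND1 and 4 in PND14. The lowest was 3-Tri M morphine replicate 8, with all 10 members below and a mean deviation of -0.52 on the log2 scale, followed by 3-Tri M morphine replicate 1 at -0.43. These 2 held 10.9 and 12.9 CPM of Fos, while the other 4 libraries of their group held 23.4 to 30.9 CPM. PND1 M saline replicate 9 was the highest at 0.55, with all 10 members above, then PND14 F saline replicate 10 at 0.48 and 3-Tri M morphine replicate 3 at 0.40. PND14 F saline replicate 10 had the highest Fos (39.5 CPM), Arc (144.0 CPM) and Dusp1 (49.2 CPM) levels of its window. High and low libraries thus occurred under both drugs.

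In 3-Tri the shared level also ran along the sex genes within the groups. Of the 12 libraries with more Xist than Ddx3y, 11 had a member mean above that of their group, and of the 12 with more Ddx3y than Xist, 11 had one below. In M morphine the 4 Xist libraries had mean deviations of 0.11 to 0.40 and held 23.4 to 30.9 CPM of Fos, and the 2 Ddx3y libraries were the low replicates 1 and 8. In M saline the 2 Xist libraries stood at 0.20 and 0.30 and the 4 Ddx3y libraries at -0.18 to -0.07. The 4 Xist libraries of F saline ranged from -0.0027 to 0.39 and its 2 Ddx3y libraries stood at -0.32 and -0.23. F morphine was less clearly split, with 0.00082 and 0.20 in the Xist libraries and -0.29 to 0.19 in the Ddx3y libraries. In PND14, where every library matched its label, the median CPM was higher in code F than in code M for 9 of 10 members after saline and 8 of 10 after morphine. In PND1, 4 of 12 Xist libraries and 5 of 12 Ddx3y libraries lay above their group mean. PND1 F morphine replicate 4, counted here with Xist, held both genes (Xist 94.9 CPM, Ddx3y 48.1 CPM). Other PND1 libraries held less of the second gene, among them F saline replicate 5, a mismatched library (Xist 9.81 CPM, Ddx3y 48.1 CPM). Such libraries counted as matching included F morphine replicate 3 (Xist 399.6 CPM, Ddx3y 8.64 CPM). M morphine replicate 6 (13.5 and 68.1 CPM) and M saline replicate 11 (10.3 and 56.6 CPM) also counted as matching. These counts describe the libraries and were not tested. Without the mismatched libraries, 2 of 12 3-Tri libraries and 6 of 20 PND1 libraries had 9 or 10 members on the same side, with mean deviations of -0.14 to 0.25 in 3-Tri.

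**Figure D5:**
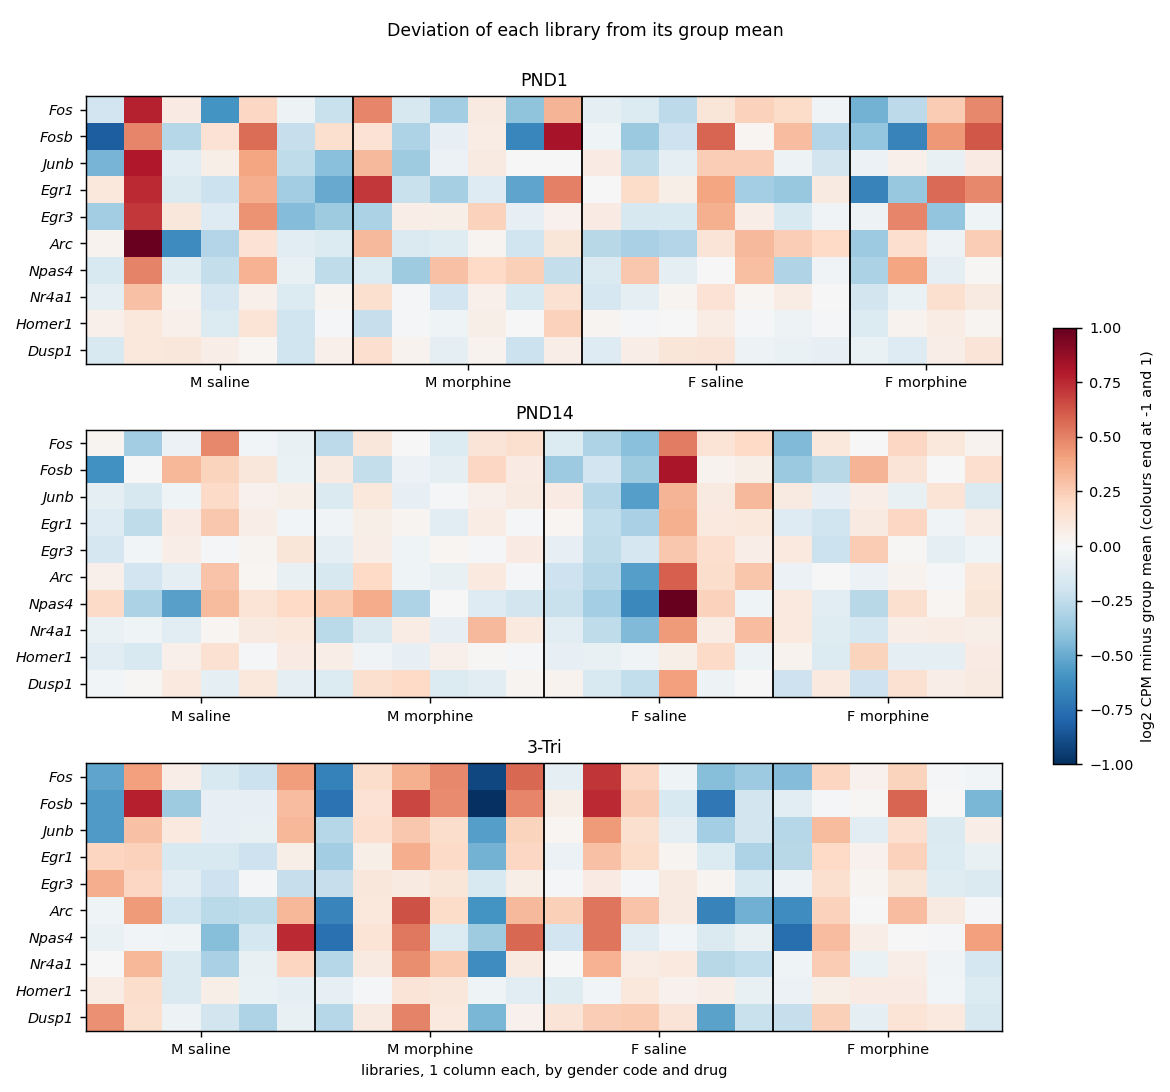
Deviation of each member (rows) from its group mean in log2 CPM (colour, ending at -1 and 1) in every library (columns), by window, code and drug. Columns of 1 colour are pups in which all 10 members stood high (PND1 M saline replicate 9, mean 0.55) or low (3-Tri M morphine replicate 8, mean -0.52).

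Ranked against all genes over the 3 windows together, 7 of the 9 other members lay close to Fos. These ranks, and the correlations with the mean of the members below, include the mismatched libraries and were not repeated without them. Without them the member pairs called in 3-Tri fell from 32 to 5, and their median r from 0.648 to 0.380. Over all 72 libraries, centred on group means, Arc had the highest r with Fos of 18208 genes (0.820), Nr4a1 ranked 3 (0.763), Junb 4 (0.759), Fosb 5 (0.753), Egr1 6 (0.727), Npas4 15 (0.547) and Dusp1 16 (0.546). Egr3 ranked 437 (0.288) and Homer1 820 (0.254). In PND1 alone, of 18351 genes, Nr4a1 ranked 1, Egr1 4, Arc 8 and Fosb 35, but Junb 115, Dusp1 547, Homer1 2167, Egr3 3210 and Npas4 4351. The share of all genes with an r over 0.5 was 0.104%. The points of these correlations share their library depth and dissection. The 10 genes outside the list with the highest r to the mean of the members were Egr2 (0.728), Bhlhe40 (0.717), Egr4 (0.685), Sik1 (0.626), Arl4d (0.624), Btg2 (0.617), Klf10 (0.615), Srf (0.588), Kcnf1 (0.585) and Slc8a2 (0.583), over 72 libraries, and 0.126% of 18199 genes had an r over 0.5. Egr2 and Egr4 are the remaining members of the EGR family, and Srf encodes the factor that binds CArG boxes. Btg2 had an r of 0.240 in PND1, 0.562 in PND14 and 0.834 in 3-Tri, whereas Egr4 was at 0.684, 0.745 and 0.725.

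Neighbouring genes of the pathway showed how far this reached. Of 24 other rapid response genes (further AP-1, EGR, KLF and DUSP family members and the like), 10 had an r over 0.5 with the member mean, with a median of 0.385. Of 17 delayed or secreted response genes 1 did (Gadd45b, 0.536), with a median of 0.149, and of 21 upstream regulators 1 did (Srf), with a median of 0.188. In response to morphine these lists moved little. In PND1, over both codes, where 16.8% of all genes passed, 1 of 25 other rapid response genes rose and 1 fell, Klf10, a TGF-beta inducible zinc finger gene, by 0.42 on the log2 scale (SE 0.11, edgeR adjusted p = 0.0124) and Ier5 by -0.19 (SE 0.07, adjusted p = 0.0476). Csrnp1 came next at 0.22 (adjusted p = 0.167). Of the 21 regulators, Elk4, a partner of SRF, rose (0.15, SE 0.05, edgeR adjusted p = 0.0353) and Crtc1, a coactivator of CREB, fell (-0.14, SE 0.04, adjusted p = 0.00983), while the NMDA receptor subunit gene Grin1 had -0.08 (adjusted p = 0.0601). None of the 17 delayed genes passed, the nearest being Scg2 (0.15, adjusted p = 0.0654), Gadd45g (-0.20, adjusted p = 0.12) and Gadd45b (-0.23, adjusted p = 0.163).

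In PND14, 1 other rapid response gene passed, Klf2 at -0.31 (SE 0.07, edgeR adjusted p = 0.0208), and 1 delayed gene, Rasgrp1, a Ras activator, at -0.19 (SE 0.04, adjusted p = 0.0198), both lower. Dusp6 (-0.14, adjusted p = 0.0805), Nfil3 (0.13, adjusted p = 0.319), Nrn1 (-0.14, adjusted p = 0.0923) and Pcsk1 (-0.10, adjusted p = 0.35) did not pass. Among the regulators 0 of 21 passed and 8 were lower at an unadjusted p under 0.05, where 8.75% of genes were, led by Creb1 itself (-0.14, SE 0.04, edgeR adjusted p = 0.0819), Elk1 (-0.13, SE 0.04, adjusted p = 0.0907) and the coactivator gene Ep300 (-0.16, SE 0.05, adjusted p = 0.0969). In 3-Tri none of the 3 lists had a gene that passed by edgeR (0% of genes did). At an unadjusted p under 0.05, 6 of 25 rapid response genes were lower, against 2.92% of all genes, with Fosl2 (-0.15), Trib1 (-0.17) and Klf10 (-0.14) leading. In the same comparison 2 of 17 delayed genes were higher, Scg2 (0.06) and Crh (0.15), beside Nrn1 at -0.08, and 1 of 21 regulators was lower (Mrtfb, -0.13), followed by Mef2c (-0.08) and Camk2a (-0.08). Over both codes of PND1, PND14 and 3-Tri the median log2 change was 0.12, -0.13 and -0.19 for the 10 members and 0.06, -0.05 and -0.09 for the other rapid response genes. It was 0.0054, -0.02 and -0.06 for the delayed genes, 0.04, -0.06 and -0.03 for the regulators, and 0.0074, 0.0063 and -0.00098 for all genes tested.

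The shared level of the members could be set against measures of each library. These were depth, the slope of expression on GC content and the mean log2 CPM of each of 8 marker lists. The lists were excitatory forebrain, striatal, hindbrain and spinal cord, cerebellar, choroid plexus, blood, endothelial and microglial. The mean log2 CPM weighs each gene of a list alike, unlike the summed CPM given above. Each measure was correlated with the mean centred level of the members in each window, 30 relations in all. None passed after adjustment by permutation (smallest adjusted p = 0.285). The strongest was that with choroid plexus markers in PND1, at r = -0.518 (rho -0.446, permutation p = 0.0209, adjusted p = 0.285, r = -0.413 without the 2 farthest libraries). Cerebellar markers had r = -0.490 in PND1 (rho -0.293, -0.101 without the 2) and r = -0.483 in PND14 (rho -0.543, -0.449 without the 2, permutation p = 0.0111, adjusted p = 0.285). For depth r lay between 0.0752 and 0.0979 in the 3 windows.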

How the data were processed

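RNA of single mouse pup brains was sequenced in 72 libraries. Per the submitters' processing notes and the study's methods, the authors trimmed reads with Trim Galore 0.6.6, mapped them to mm10 with HISAT2 2.2.1, removed duplicates with Picard and counted reads per GENCODE gene with featureCounts 2.0.1. The deposited table holds raw counts, with no normalization. The authors' DESeq2 tables hold their own comparisons, and only their gene names were used.

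Genes were filtered on low counts with edgeR (minimum count 10, minimum total 15), scaled by TMM and tested with edgeR 4.0.16 (quasi-likelihood, Benjamini-Hochberg adjustment over all genes tested, threshold 0.05) in R 4.3.3. Each window was fitted on its own by drug and gender code, and comparisons of windows used 1 fit of all libraries. Covariance used log2 CPM with a prior count of 2, centred on group means, with 100000 permutations within groups (20000 for alternatives). The edgeR test of morphine against saline was tried on simulated data, for code M of each window, and the other steps were not. Alternatives used DESeq2 1.42.0, limma 3.58.1, a GC and length correction, a replicate block, ID number as a random effect, no filter, and libraries left out. Spearman's rho for the library measures, and covariance and spread without libraries whose Xist and Ddx3y went against the label, were chosen after seeing the data. The members and gene lists were chosen with earlier results of these data known. The genes named from each list were the 3 with the smallest p in each comparison over both codes, and outside the lists the 10 with the highest r to the mean of the members. Coordinates, lengths and GC content came from GENCODE M21 on mm10, which may differ from the annotation the authors counted. No pair of libraries of 1 group agreed within sampling noise. Total counts of 3113919 to 27333125 a library leave the precision of Fosb in PND1 limited by its 9 to 45 counts.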

Additional observations from a re-analysis of the deposited data

Results flagged for a closer look

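In 7 of 120 groups of members and libraries 1 library stood apart from the rest of its group, each time on the high side, where chance gives about 1 in 20. Fosb was 15.5 CPM in PND14 F saline replicate 10, with the next library at 9.09 CPM, and 7.97 CPM in 3-Tri F morphine replicate 10, with the next at 5.34 CPM. Egr3 was 11.4 CPM in PND1 F saline replicate 4 (next 9.42 CPM). Arc was 7.29 CPM and Nr4a1 26.0 CPM in PND1 M saline replicate 9 (next 4.01 and 21.9 CPM). Npas4 was 26.9 CPM in 3-Tri M saline replicate 9 (next 15.7 CPM) and 25.3 CPM in 3-Tri F saline replicate 6 (next 17.1 CPM). PND14 F saline replicate 10 and PND1 M saline replicate 9 were also the libraries in which all 10 members stood above their group means by the most.

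The morphine response differed between windows by the edgeR test of the difference itself. Against PND1, the log2 response in PND14 differed by -0.65 for Fos, -0.53 for Egr1 and -0.29 for Homer1, and in 3-Tri by -0.78 for Fos, -0.58 for Egr1 and -0.22 for Homer1. Of all genes, 13.3% passed for PND14 and 8.43% for 3-Tri. Without the mismatched libraries only Homer1 kept its call for PND14 and only Fos for 3-Tri. Without saline number 4431 none of these genes kept it for 3-Tri.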

How the results depend on the processing

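The number of members called depended on the processing in several comparisons, and the cause was not tested. In PND1 code M it was 2, against 1 with no filter or with the GC and length correction and 0 with only the groups compared. Over both PND1 codes it was 2, against 1 with no filter. In PND14 code F it was 0, against 1 with DESeq2 or without ID number 4424. Over both PND14 codes it was 1, against 0 with no filter, with the GC and length correction, without the 2 libraries of the lowest depth, and without ID number 4422, 4423 or 4425. With no filter the ID number comparisons gave 7 members in PND14 saline, 1 in 3-Tri morphine and 2 in 3-Tri saline, against 0. The share of all genes that passed without the filter is not given here. For the difference of the response in PND14 against PND1 it was 3, against 1 with ID number as a random effect, without mismatched libraries, or without 4422, 4423 or 4425, and 5 without 4424. In 3-Tri against PND1 it was 3, against 1 without mismatched libraries or without 4433 or 4436, and 0 without 4431. Leaving out 1 library gave 0 to 2 members in PND1 code M, 1 to 4 over both PND1 codes, 0 to 1 in PND14 code F, 0 to 1 over both PND14 codes and 1 to 4 for PND14 against PND1.

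The covarying pairs fell from 21 to 13 in PND1 and from 32 to 5 in 3-Tri without the mismatched libraries, and from 22 to 4 in PND14 when centred by ID number and code and to 7 without the 2 farthest libraries.

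Replicate numbers are shared between groups, but same-numbered libraries did not deviate together in every pair, so the numbers were not taken to pair the samples. With the replicate block, the members called were 0 in PND1 code M, 1 over both PND1 codes (the Fos call was lost, adjusted p = 0.0556 by edgeR), 0 over both PND14 codes and 1 for PND14 against PND1. With the block and the GC and length correction they were 0, 0, 0 and 1, and 1 for 3-Tri against PND1, and the log2 change of Homer1 over both PND1 codes turned to -0.0040.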
